A study of Mus musculus with 2 samples.

Results

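Lncbate10, Gm34408, Gm26512 and Gm48199 are long noncoding RNA genes that were read in the nuclei of mouse brown fat with and without the splicing factor SRSF1 in adipocytes. They are 4 of the 32285 genes in the count matrices, taken by symbol, and were chosen by their low ratio of KO to WT UMIs in adipocyte nuclei. The KO and WT levels in adipocyte nuclei are therefore a description of how they were chosen and carry no test. The WT library came from Srsf1 flox/flox mice without Cre, and the KO library from Adipoq-Cre; Srsf1 flox/flox mice, so both carried the floxed alleles and only the KO carried Cre. The Adipoq promoter that drives Cre is active in mature adipocytes, so the design is meant to leave Srsf1 intact in the other cells of the tissue. Interscapular brown adipose tissue (BAT) was taken from male mice at 8 weeks of age. How many mice were pooled for a library is not stated in the sources used here. Each genotype was sequenced as 1 library, so a genotype difference cannot be told apart from a library difference. No test of it was possible, and the intervals below cover counting error only.

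Brown adipocytes burn fatty acids and glucose for heat through UCP1, which lets protons leak across the inner mitochondrial membrane. PGC-1α, the product of Ppargc1a, is the coactivator that switches on mitochondrial and thermogenic genes in response to cold. Long noncoding RNAs are transcribed and often spliced like mRNAs but encode no known protein, and many are made in only a few cell types. Lncbate10 was named as a brown-fat-enriched transcript and is known to act with the PGC-1α programme, as a decoy that keeps the RNA-binding protein CELF1 off the Ppargc1a mRNA. For Gm34408, Gm26512 and Gm48199 no role is given here. Gm34408 lies on the opposite strand inside Agmo, the gene of alkylglycerol monooxygenase, which cleaves ether lipids. Gm26512 starts head to head with Dio2, the gene of the deiodinase that activates thyroid hormone inside brown adipocytes.

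The places of the genes were read from the GENCODE annotation of GRCm38, the build of the count files. Gm34408 (ENSMUSG00000113005) lay at chr12:37446746-37475031 on the minus strand, wholly within Agmo, and is annotated as antisense with 4 exons and 655 spliced bases. Gm26512 (ENSMUSG00000097157) lay at chr12:90738201-90869235 on the plus strand and overlapped the start of Dio2, on the minus strand, by 238 bases. It is annotated as a bidirectional promoter long noncoding RNA, and its transcript with the longest last exon had 4 exons and 3042 spliced bases. Gm48199 (ENSMUSG00000113399) was an intergenic gene of 1227 bases at chr13:52180411-52181637, with 3 exons and 496 spliced bases. For these 3 genes the annotated 3′ ends are shown, since the kit primes on poly(A). Read positions were not analysed here, so which bases gave the counts is unknown, and the Gm26512 transcript shown ends well before the end of the gene. The last exons are printed 5′ to 3′ on the strand of each gene, with the poly(A) signal hexamer AATAAA in capitals where it lies within the last 50 bases. No other base is in capitals.
Gm34408, chr12:37446746-37447009, minus strand: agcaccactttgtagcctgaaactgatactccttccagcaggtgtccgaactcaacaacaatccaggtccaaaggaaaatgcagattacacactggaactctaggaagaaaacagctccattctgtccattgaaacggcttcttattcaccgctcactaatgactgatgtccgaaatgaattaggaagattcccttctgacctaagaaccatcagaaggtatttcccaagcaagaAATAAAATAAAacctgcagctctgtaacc
Gm26512, last 250 bases of the last exon, chr12:90750444-90750693, plus strand: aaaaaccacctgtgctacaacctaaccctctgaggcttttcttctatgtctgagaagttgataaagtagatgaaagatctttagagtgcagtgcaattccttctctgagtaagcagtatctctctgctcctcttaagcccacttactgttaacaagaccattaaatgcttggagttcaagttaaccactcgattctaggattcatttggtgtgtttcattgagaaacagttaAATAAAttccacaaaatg
Gm48199, chr13:52181405-52181637, plus strand: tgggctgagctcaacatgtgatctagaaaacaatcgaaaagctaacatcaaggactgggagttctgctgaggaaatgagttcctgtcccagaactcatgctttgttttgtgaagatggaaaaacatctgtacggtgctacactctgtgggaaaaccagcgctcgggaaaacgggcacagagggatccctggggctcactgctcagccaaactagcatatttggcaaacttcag
The hexamer stood 12 bases before the end of the Gm26512 transcript. Gm34408 held 2 overlapping copies, the last of which ended 18 bases before the end, and Gm48199 held none in this window. Of 18930 annotated long noncoding transcripts, 29.3% had AATAAA in their last 50 bases.

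Gm34408 and Gm26512 had promoter windows in the RefSeq table of GRCm38.p6. The windows of Gm26512 overlap the 5′ part of Dio2, and the bases just upstream of Dio2, which lie in the first intron of Gm26512, are shown in their place. This Dio2 window counts back from the RefSeq start, which lies upstream of the GENCODE start, and so lies outside the 238 bases that the genes share. The windows are shown because the levels of these RNAs are compared below with those of Agmo and Dio2. Searched on both strands were the cAMP response element TGACGTCA, the nuclear receptor half-site AGGTCA and the estrogen-related receptor element TCAAGGTCA, which contains the half-site. Matches are in capitals.
Gm34408, 250 bases before to 50 after the start, chr12:37474982-37475281, minus strand: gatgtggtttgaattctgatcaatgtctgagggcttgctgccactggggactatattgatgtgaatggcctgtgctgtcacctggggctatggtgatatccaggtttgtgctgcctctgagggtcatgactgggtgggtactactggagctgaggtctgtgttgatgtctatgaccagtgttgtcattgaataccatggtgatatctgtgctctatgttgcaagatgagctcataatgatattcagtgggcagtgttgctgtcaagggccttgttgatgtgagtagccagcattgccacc
Dio2, 250 bases before the start, chr12:90739039-90739288, minus strand: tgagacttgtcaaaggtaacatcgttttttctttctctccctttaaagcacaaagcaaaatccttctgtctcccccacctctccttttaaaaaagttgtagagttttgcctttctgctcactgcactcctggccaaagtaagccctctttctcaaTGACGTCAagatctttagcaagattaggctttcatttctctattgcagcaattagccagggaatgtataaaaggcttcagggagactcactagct
The Dio2 window held TGACGTCA once, 87 bases before the RefSeq start. The same letters were in 1.55% of the first 250 bases of 32851 promoter windows. The Gm34408 window held none of the 3 motifs, which were found in 1.79%, 16.3% and 0.423% of all 300-base windows in the order named.

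The matrices held 12846 WT and 11495 KO barcodes with 93102814 and 80090208 UMIs (unique molecular identifiers, each marking 1 captured RNA molecule), and 52 barcode sequences occurred in both. After filtering, 12771 and 11378 nuclei were kept. Each was called by the sum of its UMIs over marker lists, as the class with the largest marker share above the background of free RNA, and 18.3% of WT and 17.3% of KO nuclei reached no class. Adipocyte nuclei numbered 6850 in WT and 2898 in KO. All 12 adipocyte markers were higher there than in the other nuclei of both libraries, by 1.62 to 8.39 times, and none was at 0. Below 1.25 times the limit for the adipocyte class lay 1468 WT and 152 KO nuclei, so the class is a range rather than a sharp group, and the adipocyte marker sum had a median of 14282 counts per 1000000 UMIs (CPM) in WT and 13351 in KO. The medians in adipocyte nuclei were at most 344 CPM for the markers of any other class. Srsf1, the deleted gene, was at 177 CPM in WT and 61.4 in KO adipocyte nuclei, where the 3′ reads may lie outside the deleted part of the gene. This is 2.89-fold lower in KO. Outside adipocytes Srsf1 was lower in KO too, by less but beyond counting error. It was 1.44-fold lower in adipose stem and progenitor cells, 1.57-fold in endothelial, 1.61-fold in immune and 1.40-fold in mural nuclei. Schwann and skeletal muscle nuclei had too few UMIs to tell. The cause of the lower Srsf1 counts outside adipocytes was not tested. Median mitochondrial shares were 1.10% in the WT library and 0.0491% in the KO library, and their part in the differences below was not tested.

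Lncbate10 was the most abundant of the 4 RNAs in WT adipocyte nuclei, with 17041 UMIs or 286 CPM (95% Poisson interval 282 to 290). In KO adipocyte nuclei 91 UMIs were left, or 3.73 CPM (3.00 to 4.58). This left Lncbate10 about as rare in KO as Gm48199 was in WT. Gm34408 followed with 10435 UMIs in WT, 175 CPM, and 78 in KO, 3.20 CPM. Gm26512 had 6019 UMIs in WT, 101 CPM, and 10 in KO, 0.410 CPM. Gm48199 was a rare RNA at 274 UMIs in WT, 4.60 CPM, with 8 UMIs in KO, 0.328 CPM. The order of abundance in WT was thus Lncbate10, Gm34408, Gm26512 and Gm48199, with no overlap of the counting intervals between neighbours, on a scale that counts molecules and is not divided by transcript length. The order in KO was the same, but Lncbate10 and Gm34408 had overlapping intervals there, and so did Gm26512 and Gm48199.

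UMIs of all 4 were still counted in KO adipocyte nuclei, where free RNA also gives counts. Lncbate10 stood there at 3.73 CPM (3.00 to 4.58) against 0 UMIs in KO endothelial nuclei, for which the interval reaches 1.70 CPM. The other 3 were not above the KO endothelial nuclei beyond counting error, and Gm26512 was at 0.410 CPM in the one and 0.460 in the other. KO counts were 76.8-fold lower for Lncbate10 (95% conditional binomial interval 62.5 to 95.4), 54.8-fold for Gm34408 (43.9 to 69.4), 247-fold for Gm26512 (134 to 515) and 14.0-fold for Gm48199 (7.03 to 32.8). On the log2 scale these are differences of −6.26, −5.78, −7.95 and −3.81, beside a median of 0.11 over the 16382 genes with at least 50 UMIs and −0.47 over the 2654 long noncoding genes among them. Lncbate10, Gm34408 and Gm26512 were at least 16-fold lower and all 4 at least 4-fold lower, as were 0.879% and 7.46% of all these genes and 3.35% and 24.1% of the long noncoding ones. These shares only place the 4 RNAs, since the same contrast chose them. Counted from the lowest KO to WT ratio, Gm26512 stood at place 2 of all 16382 genes, Lncbate10 at 9, Gm34408 at 17 and Gm48199 at 186.

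**Figure D1:**
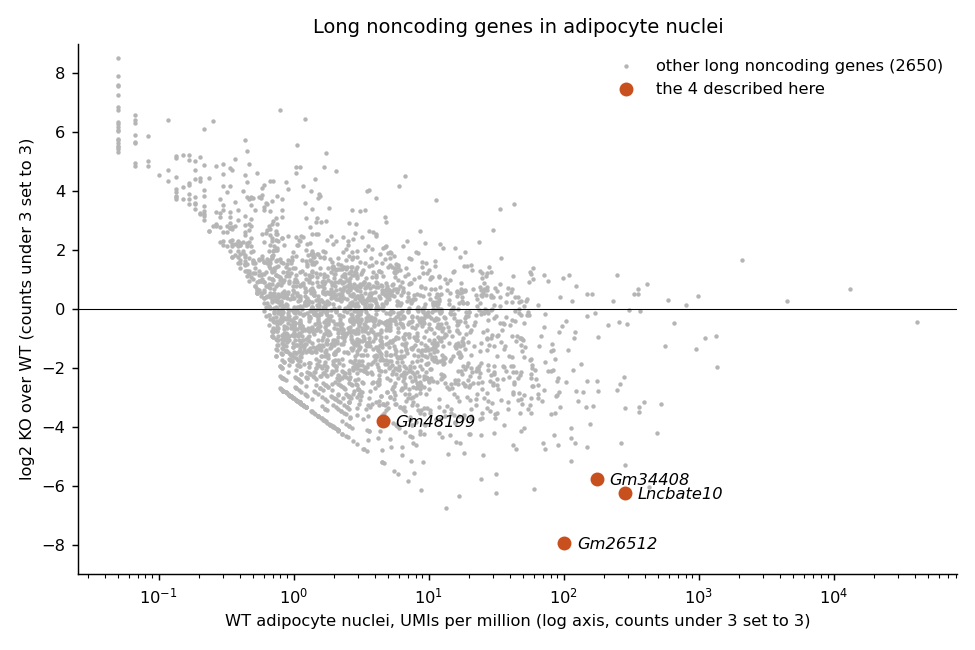
Each point is 1 of 2654 long noncoding genes in adipocyte nuclei, with its WT level in CPM on a log axis and its log2 KO to WT ratio on the vertical axis, counts under 3 set to 3 on both axes. Gm26512, Lncbate10 and Gm34408 (orange) lie at the lower right, at −7.95, −6.26 and −5.78 with WT levels of 101 to 286, and Gm48199 lies at −3.81 with a WT level of 4.60.

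A low ratio was more common among some kinds of long noncoding genes than others. Of 1252 genes annotated as antisense, the kind of Gm34408, 36.3% were at least 4-fold lower in KO adipocyte nuclei and the median log2 ratio was −1.33. Of 792 intergenic ones, the kind of Lncbate10 and Gm48199, 15.3% were, with a median of 0.29, and of 99 with bidirectional promoters 11.1%, with a median of −0.27. Among the 68 long noncoding genes with at least as many WT UMIs as Gm26512, 12 (17.6%) were at least 16-fold lower in KO, including Gm26512, Lncbate10 and Gm34408, and of the 972 with at least as many as Gm48199 it was 59 (6.07%). In the other direction, 10.7% of the long noncoding genes and 7.07% of all genes were at least 4-fold higher in KO. A set of 20 noncoding RNAs known from fat or from nuclei generally was read as well, with Lncbate10 among them. Of the 17 with enough UMIs, only Lncbate10, itself chosen by this ratio, was at least 4-fold lower, and 2 were at least 4-fold higher. These were Pvt1, the noncoding neighbour of Myc, at 42.6 CPM in WT and 510 in KO, and Snhg11, a small nucleolar RNA host gene, at 15.6 and 101. Neat1, the scaffold of paraspeckles, had a log2 ratio of 0.29 and Malat1, a nuclear speckle RNA, of −0.43.

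Among 27 thermogenic genes, 12 were at least 4-fold lower in KO adipocyte nuclei and none at least 4-fold higher, with a median log2 ratio of −1.55. Dio2 had the lowest ratio, with 32213 UMIs in WT and 35 in KO and a log2 ratio of −8.56. Ucp1 had −4.85, Cidea, a lipid droplet protein of brown fat, −4.12, and Ppargc1a −3.42. Zfp516 and Lhx8, transcription factors found in brown fat, had positive ratios of 0.55 and 1.16. Lncbate10, Gm34408 and Gm26512 were lower in KO by more than Ucp1 and Ppargc1a. They were chosen by this very ratio, so that order follows from the choice and carries no test. The counting intervals of the log2 ratio overlapped between Gm26512 (−9.01 to −7.07) and Dio2, the gene it overlaps (−9.08 to −8.08). White-type and lipogenic genes were mostly within 4-fold. Of 4 white-type genes with enough UMIs 1, the leptin gene Lep, was at least 4-fold higher (log2 ratio 2.59), and of 7 lipogenic genes 1, the elongase gene Elovl6, was at least 4-fold lower (−2.46).

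The counts per nucleus show how the signal was spread. In WT, Lncbate10 was seen in 4066 of 6850 adipocyte nuclei, Gm34408 in 3683, Gm26512 in 2808 and Gm48199 in 226. Of these nuclei 1263 held 5 or more Lncbate10 UMIs, 586 held as many of Gm34408 and 253 of Gm26512. The highest count in any nucleus was 48, 33, 27 and 4 in the same order. With each nucleus thinned to 2000 UMIs, which left out 1674 shallower nuclei of WT and 434 of KO, Lncbate10 was seen in 38.7% of WT adipocyte nuclei (exact binomial interval 37.4 to 40.1) and 0.528% of KO (0.281 to 0.901). Gm34408 was seen in 28.4% and 0.487%, Gm26512 in 17.2% and 0.0406%, and Gm48199 in 0.792% of WT nuclei and in 0 of 2464 in KO, where the interval reaches 0.150%. Endothelial nuclei were taken as the background of free RNA at the same depth, and in them 10.8% of 1326 WT nuclei (749 left out) held Lncbate10, 7.84% Gm34408, 3.17% Gm26512 and 0.302% Gm48199. All 4 WT adipocyte shares were above that background, though for Gm48199 the counting intervals overlap (0.569 to 1.07 against 0.0823 to 0.771). Of 445 KO endothelial nuclei (351 left out) 0.449% held Gm34408, 0.225% Gm26512 and none Lncbate10 or Gm48199, where the interval reaches 0.826%. The intervals of the thinned KO adipocyte and endothelial shares overlapped for all 4 RNAs, whereas over all UMIs the KO level of Lncbate10 was above that of endothelial nuclei, as given above. Unthinned, the WT adipocyte shares were 59.4%, 53.8%, 41.0% and 3.30% at a median of 6577 UMIs, and the endothelial ones 14.8%, 10.0%, 5.25% and 0.434% at 2260 UMIs.

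The few UMIs left in KO were not spread alike. The 78 Gm34408 UMIs fell in 75 nuclei, of which 72 held a single one. The 91 Lncbate10 UMIs fell in 49 nuclei, and the 10 highest of them held 46.2% of all, with up to 8 in 1 nucleus. These 49 nuclei were picked for holding a Lncbate10 UMI, and 29 of them held a single one. Their Lncbate10 level of 122 CPM thus follows from the choice. Ppargc1a stood in them at 1387 CPM (1304 to 1475), against 416 (408 to 425) in the 2849 KO adipocyte nuclei without a Lncbate10 UMI. These intervals and those that follow cover counting error and leave out the spread between nuclei. Ucp1 stood at 109 CPM (86.5 to 135) against 56.3 (53.3 to 59.4), and Cidea at 99.5 (78.1 to 125) against 49.6 (46.8 to 52.5). Dio2 had 1 UMI in the 49 nuclei, 1.34 CPM (0.0340 to 7.49), and 1.44 CPM in the others, too few UMIs to tell whether it followed. The 49 nuclei also held 1 UMI of Gm34408, where the interval reaches 7.49 CPM. They held none of Gm26512 or Gm48199, where it reaches 4.96 CPM. Srsf1 was at 48.4 CPM (33.9 to 67.0) in these nuclei and at 61.8 (58.7 to 65.1) in the others. Since a deeper nucleus is more likely to show any UMI, the median depths of 9139 and 6134 UMIs belong beside these values, and their part in the difference was not tested.

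In 4 other classes of WT nuclei, Lncbate10 held a share of its adipocyte level below the median share of the thermogenic genes. Its counting interval held that median in mural nuclei (25.1 to 37.7) and ended just below it in immune nuclei (21.2 to 27.5). Gm26512 was below the median in all of them but adipose stem and progenitor cells. For Gm26512 this was beyond counting error only in endothelial nuclei (18.8 to 26.7). Gm34408 held a larger share in some classes. As a share of its own WT adipocyte level, Lncbate10 was at 23.8% in adipose stem and progenitor cells (ASPC) and at 26.8% in endothelial nuclei. It was at 24.2% in immune and 30.9% in mural nuclei. The medians of the 27 thermogenic genes were 30.2%, 30.8%, 27.6% and 31.6% in the same classes, and Gm26512 was at 32.3%, 22.5%, 25.1% and 21.5%. Of these 27 genes, 24, 16, 18 and 14 were above Lncbate10 in the 4 classes and 11, 21, 17 and 25 above Gm26512. Gm34408 was at 62.0% in ASPC (54.6 to 70.2) and 48.5% in mural nuclei (39.2 to 59.3), but at 28.4% in endothelial (25.2 to 31.9) and 32.8% in immune nuclei (28.3 to 37.7). Above Gm34408 were 15 of the 27 in endothelial nuclei, 9 in immune and 6 in mural ones. In ASPC nuclei 6 were above it, namely Zic1, Lhx8, Ebf2, Zfp516, Cox7a1 and Cox8b, of which Zic1, Lhx8, Ebf2 and Zfp516 encode transcription factors of the brown fat lineage. Per 100 Lncbate10 UMIs there were 61.2 of Gm34408 in WT adipocyte nuclei (59.8 to 62.7), 65.1 in endothelial nuclei (55.9 to 75.7) and 159 in ASPC (130 to 196). Free RNA was present in all these classes, as the adipocyte markers below show, and its part in the levels was not tested. Gm48199 was counted 7 times in WT ASPC, 14 times in endothelial and 2 times in immune nuclei and was not seen in mural nuclei, too few for an order of classes.

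**Figure D2:**
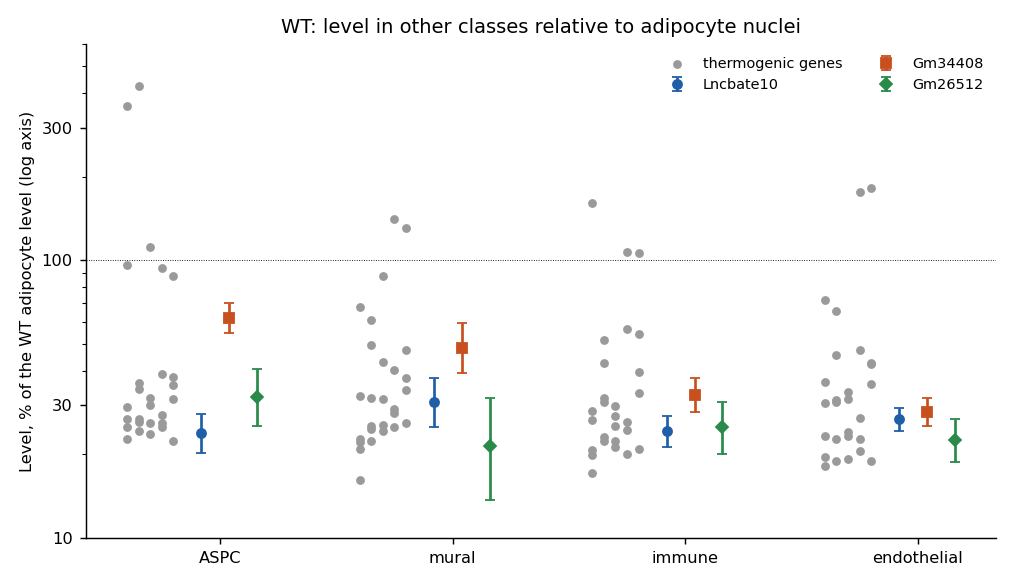
Level in ASPC, mural, immune and endothelial nuclei of WT as a percentage of the level in WT adipocyte nuclei (log axis), for 27 thermogenic genes (grey points) and for Lncbate10, Gm34408 and Gm26512 with 95% Poisson intervals, Gm48199 being left out for its few UMIs. Lncbate10 and Gm26512 lie between 21.5% and 32.3%, in or at the lower edge of the main group of thermogenic genes, and Gm34408 lies above that group in ASPC nuclei at 62.0%.

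Within WT ASPC, Gm34408 was unevenly spread. The 191 nuclei with a UMI of Dpp4, Pi16 or Cd55, markers of early progenitors, had 85.2 CPM (70.0 to 103), and the 248 without had 139 (117 to 164). Lncbate10 was at 68.1 and 68.4 CPM in the same sets and Gm26512 at 34.8 and 29.7. The sets differed in depth, with medians of 5000 and 3367 UMIs, and the part of depth was not tested.

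In ASPC, endothelial and immune nuclei, where the Adipoq promoter is not known to be active, the KO counts of Lncbate10, Gm34408 and Gm26512 were lower as well. Lncbate10 went from 441 UMIs in WT endothelial nuclei to none in KO, which is at least 55.5-fold lower when 0 is set to 3 counts, while the 95% counting interval of the log2 ratio reaches up to −5.49, a smaller difference. In ASPC it had 157 and 4 UMIs, 181-fold lower (69.5 to 674), and in immune nuclei 235 and 22, 63.1-fold lower (40.7 to 103), of which 12 of the 22 lay in 1 nucleus. Gm26512 had 75 and 3 UMIs in ASPC (a ratio of 116, interval 38.0 to 573), 131 and 1 in endothelial and 86 and 3 in immune nuclei. At least 4-fold lower in KO were 4.01% of the genes tested in ASPC, 5.24% in endothelial and 4.36% in immune nuclei. Adipocyte markers were at a median sum of 3680 CPM in WT and 2446 in KO ASPC nuclei, of 6388 and 3955 in endothelial and of 2874 and 1367 in immune nuclei, so that RNA of adipocytes was counted in these classes in both libraries. How much of a class's own change is in these ratios was not tested.

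Gm34408 differed from Lncbate10 and Gm26512 in KO. Its level was highest in ASPC nuclei, at 9.88 CPM (8.08 to 12.0), and then 4.94 in immune (4.01 to 6.01), 3.20 in adipocyte (2.53 to 3.99) and 2.30 in endothelial nuclei (0.746 to 5.36), whose interval overlaps those of the immune and adipocyte nuclei. Lncbate10 was at 0.376 CPM in KO ASPC and Gm26512 at 0.282. The log2 ratio of KO to WT for Gm34408 was −3.46 in ASPC (−3.80 to −3.13) and −3.54 in immune nuclei (−3.90 to −3.18), against −5.78 in adipocyte nuclei.

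**Figure D3:**
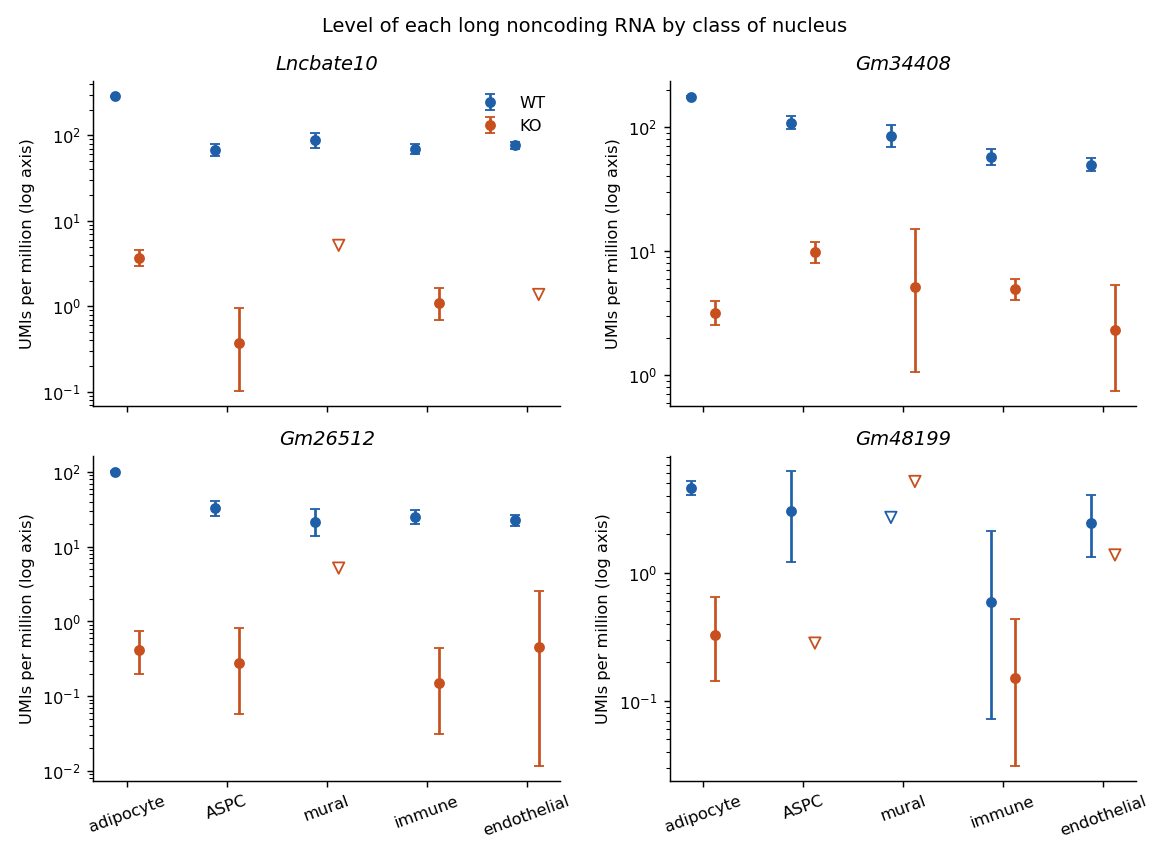
CPM (log axis) of each RNA in 5 classes of nuclei, WT in blue and KO in orange, with 95% Poisson intervals, and open triangles at the level of 3 counts where no UMI was seen. Lncbate10, Gm34408 and Gm26512 are highest in WT adipocyte nuclei, and Gm48199 has too few UMIs in the other classes for an order. Gm34408 alone has its highest well-counted KO level in ASPC nuclei, at 9.88.

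The KO pattern of Gm34408 was that of Agmo, the gene around it. Agmo had 62270 UMIs in WT and 6613 in KO adipocyte nuclei, a log2 ratio of −1.95, but in KO it was higher in ASPC, at 790 CPM, and in immune nuclei, at 436, than in adipocyte nuclei, at 271. Per 100 Agmo UMIs there were 1.18 of Gm34408 in KO adipocyte (0.931 to 1.47), 1.25 in KO ASPC (1.02 to 1.52), 1.13 in KO immune (0.918 to 1.38) and 0.650 in KO endothelial nuclei (0.211 to 1.52), with overlapping intervals in all 4 classes. In WT the ratio was 16.8 per 100 in adipocyte nuclei (16.4 to 17.1), 12.0 in ASPC (10.5 to 13.7), 12.4 in endothelial (10.9 to 14.0) and 11.6 in immune nuclei (9.94 to 13.4). In WT the adipocyte ratio was above those of ASPC, endothelial and immune nuclei, and its interval just overlapped that of mural nuclei (13.3, interval 10.6 to 16.6). The KO ratios were below the WT ratios in all 5 classes. Gm34408 lies wholly within Agmo on the other strand, and whether the authors counted by strand and included introns is not given in the sources used here. Some reads of one gene may therefore have been counted for the other. How much of the Gm34408 counts this could be, in KO above all, was not tested.

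**Figure D4:**
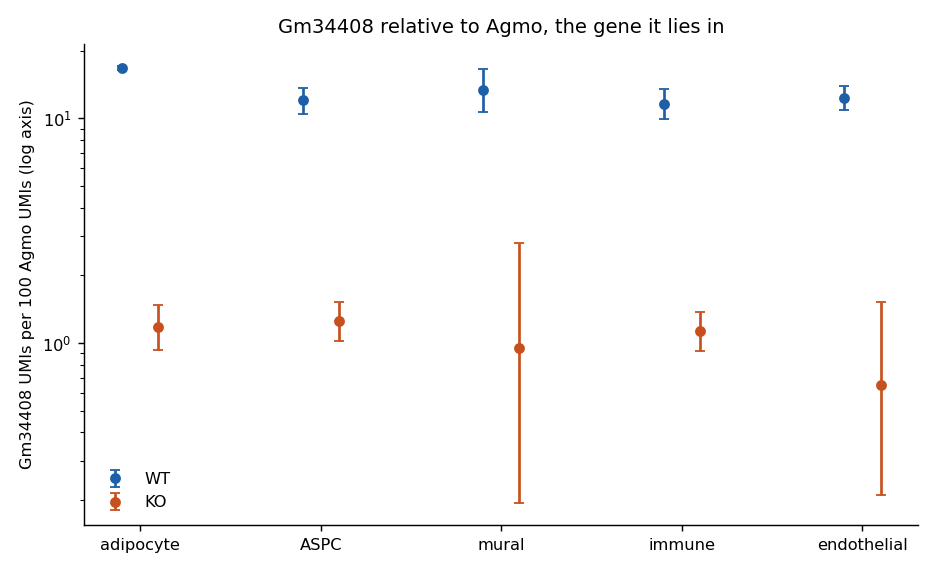
Gm34408 UMIs per 100 Agmo UMIs (log axis) in 5 classes of nuclei, WT in blue and KO in orange, with 95% binomial intervals. The WT values lie between 11.6 and 16.8 and the KO values between 0.650 and 1.25.

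The other neighbours were measured in the same way. Gm26512 and Dio2 kept a steadier ratio, with 18.7 Gm26512 UMIs per 100 Dio2 UMIs in WT adipocyte nuclei (18.2 to 19.2), 18.5 in WT endothelial (15.2 to 22.3) and 22.5 in WT ASPC nuclei (17.2 to 28.9). In KO adipocyte nuclei 10 Gm26512 and 35 Dio2 UMIs gave 28.6 per 100, with an interval of 12.6 to 59.0 that holds the WT value. These genes share 238 bases on opposite strands, so the limit on strand and intron counting given for Gm34408 and Agmo holds for them too. Further along, 4930544I03Rik, another noncoding gene that overlaps Gm26512, had a log2 ratio of −1.19 and Cep128, a centriole gene 129 kb away, of 1.59. Lncbate10 (ENSMUSG00000118229) is an intergenic gene of 14383 bases on the minus strand of chromosome 18. Of the genes around it, Ppargc1b, which encodes the related coactivator PGC-1β and lies 69.8 kb away, had a log2 ratio of −2.01, Csnk1a1, a kinase gene, of 0.19, and Arhgef37, only 7.05 kb from Lncbate10, of 2.46, with 329 UMIs in WT and 740 in KO. Around Gm48199 no neighbour was read well enough, since 4921525O09Rik had 2 WT UMIs and Gm48190 none in adipocyte nuclei. Meox2, a homeobox gene 267 kb from Gm34408, had a log2 ratio of −1.15.

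Within WT, the 4 RNAs were set against Ppargc1a and Ucp1 nucleus by nucleus. This used 4929 WT adipocyte nuclei thinned to 3000 UMIs each, with 1921 shallower nuclei left out. Nuclei of 1 library share their source and a fixed total, so correlations over them are descriptions. Spearman's rho with Ppargc1a was 0.32 for Lncbate10, 0.16 for Gm26512, 0.08 for Gm48199 and 0.02 for Gm34408, where the median of 9275 genes was −0.01. That placed Lncbate10 at rank 10 of the 9275 genes, Gm26512 at 96, Gm48199 at 290 and Gm34408 at 1587. With Ucp1 the values were smaller at 0.13, 0.07, 0.02 and −0.003 in the same order, at ranks 25, 162, 1152 and 4607. Ppargc1a and Ucp1 themselves had a rho of 0.16 with each other. The values of Gm48199 are weak ones in sparse counts, from 274 UMIs in all WT adipocyte nuclei before thinning. Those of Gm34408 were weak as well, though it had 10435 UMIs there against 6019 of Gm26512.

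When the nuclei were ordered by Ppargc1a and cut into 5 equal parts, Lncbate10 was at 147, 215, 277, 375 and 555 CPM from the lowest part to the highest. The highest part was 3.78 times the lowest (3.40 to 4.21), where the median gene was at 0.90 times. Gm26512 was at 63.2, 89.2, 94.0, 131 and 147 CPM, 2.33 times from end to end (1.96 to 2.78). Gm34408 stayed between 162 and 188 CPM in all 5 parts, and its ratio of 1.11 had an interval of 0.98 to 1.26. Gm48199 had 1, 7, 20, 27 and 31 UMIs in the 5 parts, and so was close to 0 in the nuclei with least Ppargc1a. Ordered by Ucp1, Lncbate10 was 1.75 times as high in the highest part as in the lowest (1.59 to 1.93), Gm26512 1.53 times (1.30 to 1.82), Gm48199 2.55 times (1.23 to 5.67, from 11 to 28 UMIs) and Gm34408 1.01 times (0.89 to 1.14). The median depth before thinning ran from 7338 to 8393 UMIs over the Ppargc1a parts without following their order, and the mitochondrial share from 0.706% in the lowest to 0.821% in the highest. The lowest part also held most of the signal of Slc7a10, a transporter of white-type adipocytes, at 126 CPM against 12.9 to 25.7 in the others.

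**Figure D5:**
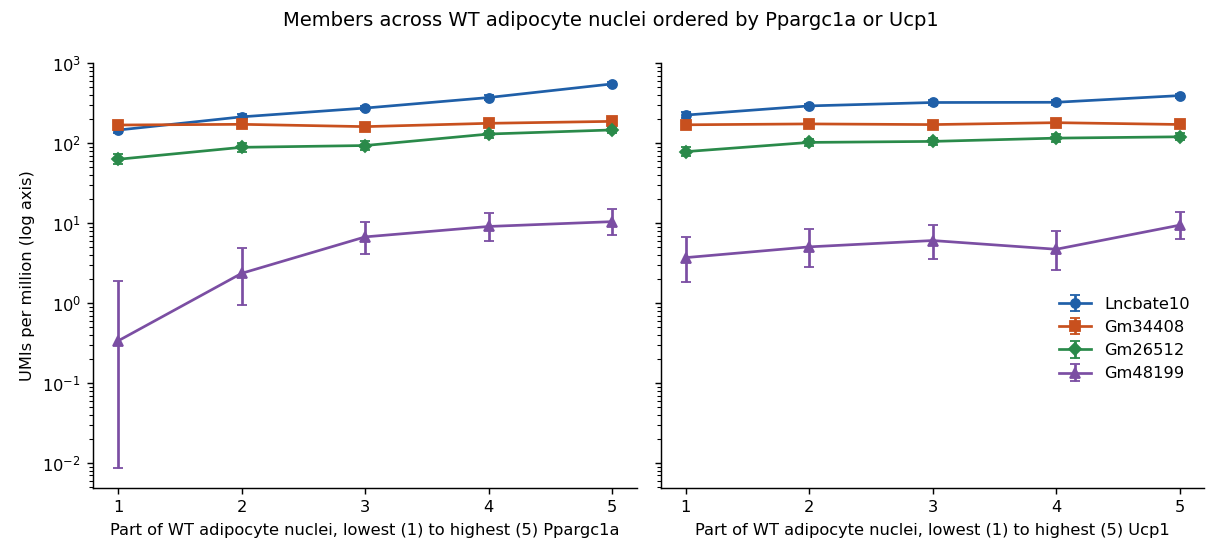
WT adipocyte nuclei thinned to 3000 UMIs and cut into 5 parts by their Ppargc1a count (left) or Ucp1 count (right), with the level of each RNA in CPM (log axis) and 95% Poisson intervals. Lncbate10 goes from 147 to 555 over the Ppargc1a parts and Gm26512 from 63.2 to 147, and Gm34408 stays between 162 and 188.

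Lncbate10, Gm26512 and Gm48199 were lower in WT nuclei that carried white-type genes. The 440 WT adipocyte nuclei with 2 or more Slc7a10 or Lep UMIs had 196 CPM of Lncbate10 (187 to 205), and the 5829 with none had 312 (306 to 317). Gm26512 was at 75.0 (69.7 to 80.6) and 107 (104 to 110), and Gm48199 at 2.90 (1.94 to 4.17) and 5.36 (4.69 to 6.10). Gm34408 differed least, at 166 (158 to 174) and 176 (172 to 180). Ppargc1a was at 3401 and 5181 CPM in the same sets, Ucp1 at 1147 and 1799, and median depths were 11951 and 6276 UMIs.

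The genes most like each RNA over WT adipocyte nuclei were of different kinds. For Lncbate10, among 9275 genes with at least 500 UMIs, Ppargc1a was first at 0.32. It was followed by Ppara, the fatty acid sensor, at 0.29, Irs2, an insulin receptor substrate, at 0.25, Mapkapk2, a stress kinase, at 0.23 and Noct, a circadian gene, at 0.23. For Gm26512, Dio2 was first at 0.24, before Ppargc1a at 0.16, Irs2 and Ppara at 0.14 each and Gk, glycerol kinase, at 0.13. Lncbate10 and Gm26512 thus shared Ppargc1a, Ppara and Irs2 among their leading 5. For Gm34408, Agmo stood alone at 0.19 and no other gene passed 0.06, namely Edem2, Kmo, Hivep2 and Aff1. For Gm48199, Ppargc1a was first at only 0.08, and Gm37305, Adcy3, Zfp512b and Fam222a followed at 0.07. Over the summed levels of 5 classes in both libraries, 10 points that share libraries, the most like genes by Pearson's r were others. Gm47106 was first for Lncbate10 (0.99), Gm50163 for Gm34408 (0.98), Kcnd2, a potassium channel gene, for Gm26512 (0.99, just before Dio2) and Zdhhc6 for Gm48199 (0.93). Between the 4 RNAs themselves, over nuclei, rho was 0.09 for Lncbate10 with Gm26512, 0.06 for Lncbate10 with Gm48199, 0.05 for Gm26512 with Gm48199 and at most 0.01 for Gm34408 with any of them. Of the 4929 nuclei, 251 showed Lncbate10, Gm34408 and Gm26512 all at once at this depth, with a median of 18 Ppargc1a UMIs, and 1238 showed none of the 3, with a median of 7.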

How the data were processed

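The authors deposited raw counts of UMIs per gene and nucleus, 1 matrix per library, made from 10x Genomics 3′ libraries. The submitters' processing notes name Cell Ranger 5.0.0 and Seurat 3.1.1, and the build is GRCm38. The paper's methods name an earlier version of Cell Ranger, and which of them made the deposited counts is not known here. Nuclei were kept with at least 200 genes, at most 10% mitochondrial UMIs, and log UMI and gene numbers at most 3 median absolute deviations from the median of their library. Marker sums called a class with at least 5 marker UMIs, 3 times the background share and 2 times the next class above background. This rule was settled after the data were seen. No doublet caller was run. UMIs were summed per class and scaled to 1000000 (CPM). Intervals are 95% exact Poisson or binomial. A count of 0 was set to 3 for a bound. Genes were tested for a fold with at least 50 UMIs. Nuclei were thinned without replacement. Nuclei of a library do not replicate its genotype, so no p-value was computed. Genes named are the 4 RNAs, Ppargc1a, Ucp1, Srsf1, annotated neighbours, the 5 genes most like each RNA over nuclei and the first over class sums, and the ends and main members of lists of thermogenic, noncoding, white-type and lipogenic genes. The 4 RNAs and the lists were chosen with earlier results of these data known. Further genes, named after their values were seen, are Slc7a10, Zic1, Ebf2, Cox7a1, Cox8b and the sets by Dpp4, Pi16 and Cd55. Gene places and last exons come from GENCODE release M21 and promoters from RefSeq. The steps were checked on simulated data. Tools were Python 3.11.15, numpy 2.4.6, scipy 1.17.1, pandas 2.3.3 and matplotlib 3.10.9. Alternatives covered the filter, class call, doublets, scaling, free RNA and thinning.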

Additional observations from a re-analysis of the deposited data

How the results depend on the processing

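No paired analysis was possible because each genotype had 1 library. All 39 log2 KO to WT ratios of the 4 RNAs recomputed in adipocyte nuclei kept their sign, and 34 stayed within the counting interval. The exceptions were Gm34408 at −5.20 with the study's markers only and at −7.13 with the endothelial level subtracted, and Lncbate10 at −6.70 with a stricter class call and −5.81 with the subtraction, which also gave Gm48199 −2.73. For Gm26512 that subtraction left no KO level and so no value. Of 48 recomputed correlations 41 moved by at most 0.05. Thinning to 1500 UMIs gave Lncbate10 0.23 with Ppargc1a and 0.068 with Ucp1, and Gm26512 0.10 with Ppargc1a. Without thinning, Gm34408 had 0.12 and Gm26512 0.26 with Ppargc1a. Gm26512 with Ucp1 was at 0.017 without Slc7a10 or Lep nuclei and at 0.15 with a stricter call. Nuclei with at least 3000 UMIs (levels) or 6000 (correlations) were added after the data were seen and moved none of these values beyond those limits. Shares follow depth. At 4000 UMIs, Lncbate10 was seen in 56.2%, Gm34408 in 46.9%, Gm26512 in 31.9% and Gm48199 in 1.85% of WT adipocyte nuclei, and in KO Lncbate10 in 0.931% and Gm34408 in 1.42%. Unthinned, the WT shares were 59.4%, 53.8%, 41.0% and 3.30%, and the KO shares 1.69%, 2.59%, 0.311% and 0.173%. Likeness over the class sums of both libraries shared 1 of the 5 most like genes for Gm26512 (Dio2) and 0 for the other RNAs. What caused these moves was not tested. The limits are 1 library per genotype, the few KO UMIs of Gm26512 and Gm48199, and free RNA that differs between the libraries.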
